A study of Rattus norvegicus with 6 samples.

Results

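The genes described here encode the machinery of chemical synapses in the retina, including the ribbon synapses of photoreceptors and bipolar cells. They are 32 genes, taken by a list of gene symbols from the 28358 genes of the deposited tables. All 32 were present and all passed the filter on low counts that left 13242 genes for testing. Gene expression was measured by RNA sequencing of the neuroretina. The donors were male rats of the Goto-Kakizaki (GK) strain, which is lean and develops inherited type 2 diabetes. The animals were 14 months old. In both groups a volume of 5 µL of microspheres of PLGA, a degradable polymer, had been injected once into the vitreous, and the retina was taken 2 months later. The 3 non-loaded libraries came from eyes given microspheres without drug. The 3 spironolactone libraries came from eyes given microspheres with 6.2 µg of spironolactone, a drug that blocks the mineralocorticoid receptor. Non-diabetic and uninjected eyes were not analysed here, so all values belong to diabetic, injected eyes, and it is not stated that the 3 samples of a group are 3 animals. The p-values therefore rest on the scatter among these libraries, part of which may be technical.

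A synapse releases transmitter when calcium enters through voltage-gated channels beside docked vesicles, and the SNARE proteins then fuse the vesicle with the membrane. Photoreceptors and bipolar cells release glutamate continuously, and their terminals hold a ribbon, a plate built largely from the protein RIBEYE that tethers vesicles above the active zone. Amacrine cells use conventional synapses and release mainly GABA or glycine. The members were therefore read in 4 classes: vesicle and release genes, ribbon and active zone genes, transmitter receptors, and postsynaptic scaffold, kinase and adhesion genes. In a bulk sample, fewer cells of a type and less RNA per cell cannot be told apart.

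The libraries held 9996198 to 12589466 expected counts. Pearson correlations of log2 normalised values across genes were 0.987 to 0.992 for the 15 pairs. No pair of libraries agreed within sampling noise. Non-loaded replicate 3 differed less from spironolactone replicate 1 (chi-square per gene 4.72) than from non-loaded replicates 1 (5.61) and 2 (5.04). Scores on principal component 1 (29% of the variance) were -17.7, -11 and -5.63 without drug and 1.61, 10.3 and 22.4 with it, so the spread within each group was wider than the gap between the groups. The Müller glia gene Rlbp1 measured 353 to 413 CPM, the count scaled to a common library size, over the 6 libraries. Rpe65, a marker of the adjoining pigment epithelium, measured 17.9, 16.7 and 11.3 CPM without drug and 14.5, 10.2 and 5.6 CPM with it. Of 10 tested markers of that layer 0 passed (2 at an unadjusted p below 0.05) and 9 lay below 0, and the sums over all 11 listed were 138 to 165 CPM and 78.8 to 152 CPM. Of 3 tested astrocyte markers 1 fell, and the sums over all 4 listed did not overlap, at 191 to 197 CPM and 147 to 174 CPM. Of 12 rod markers, 6 fell and 0 rose with spironolactone. Their summed level was 46985 to 58483 CPM in the non-loaded and 38936 to 43593 CPM in the spironolactone libraries. The summed cone markers were 1026 to 1056 CPM and 901 to 993 CPM, although 0 of 11 passed (2 at an unadjusted p below 0.05). Bipolar markers summed to 2289.7 to 2494 CPM and 2338 to 2482 CPM, with 0 of 11 passed (1 at an unadjusted p below 0.05). Amacrine sums were 1943 to 1970 CPM and 1980 to 2020 CPM, without overlap. Of these 10 markers 0 passed (2 at an unadjusted p below 0.05). Horizontal cell sums were 373 to 400 CPM and 359 to 372 CPM, also without overlap. Of these 6 markers 0 passed (1 at an unadjusted p below 0.05). Ganglion cell sums (1180 to 1445 and 1262 to 1349 CPM) and Müller glia sums (8410 to 8576 and 8328 to 8542 CPM) overlapped.

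None of the 32 synaptic genes passed the test. The genes nearest to it were Slc17a7 and Syp, of the vesicle, with log2 fold changes of -0.20 and -0.19 (spironolactone against non-loaded), the receptor genes Gria4 and Gabrr2 at -0.19 and -0.18, and, on the higher side, Rims2 and Ctbp2 of the ribbon active zone, Syt1 and Grin2a. The other 24 had an unadjusted p above 0.05. With edgeR's quasi-likelihood test and Benjamini-Hochberg adjustment over all genes, 0 rose and 0 fell. Over all tested genes 2.63% passed, 1.87% higher and 0.763% lower with spironolactone, so 0 of 32 is near that background. An unadjusted p below 0.05 was found for 8 members, 4 higher and 4 lower, which is 25% of them against 15.8% of all tested genes. In 6 members (18.8%) the CPM of the groups did not overlap, against 20.9% of all tested genes. DESeq2 called 2 members, both lower, where it called 5.05% of the genes it gave an adjusted p (3.61% higher, 1.43% lower). It gave no adjusted p for the members Stx1a, Grin2a, Homer1 and Camk2a. Limma-voom called 1 member and 2.59% of all tested genes. The median log2 fold change of the members was -0.01, and that of all tested genes was -0.003. For 31 of 32 members the 95% interval of the fold change lay inside 1.5-fold in both directions, and the exception was Grin2a. The same held for 10200 of the 13242 tested genes. This margin is wide beside the member estimates, whose log2 fold changes ran from -0.20 to 0.37. Fewer member intervals lay inside narrower margins, so smaller differences are not excluded.

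**Figure D1:**
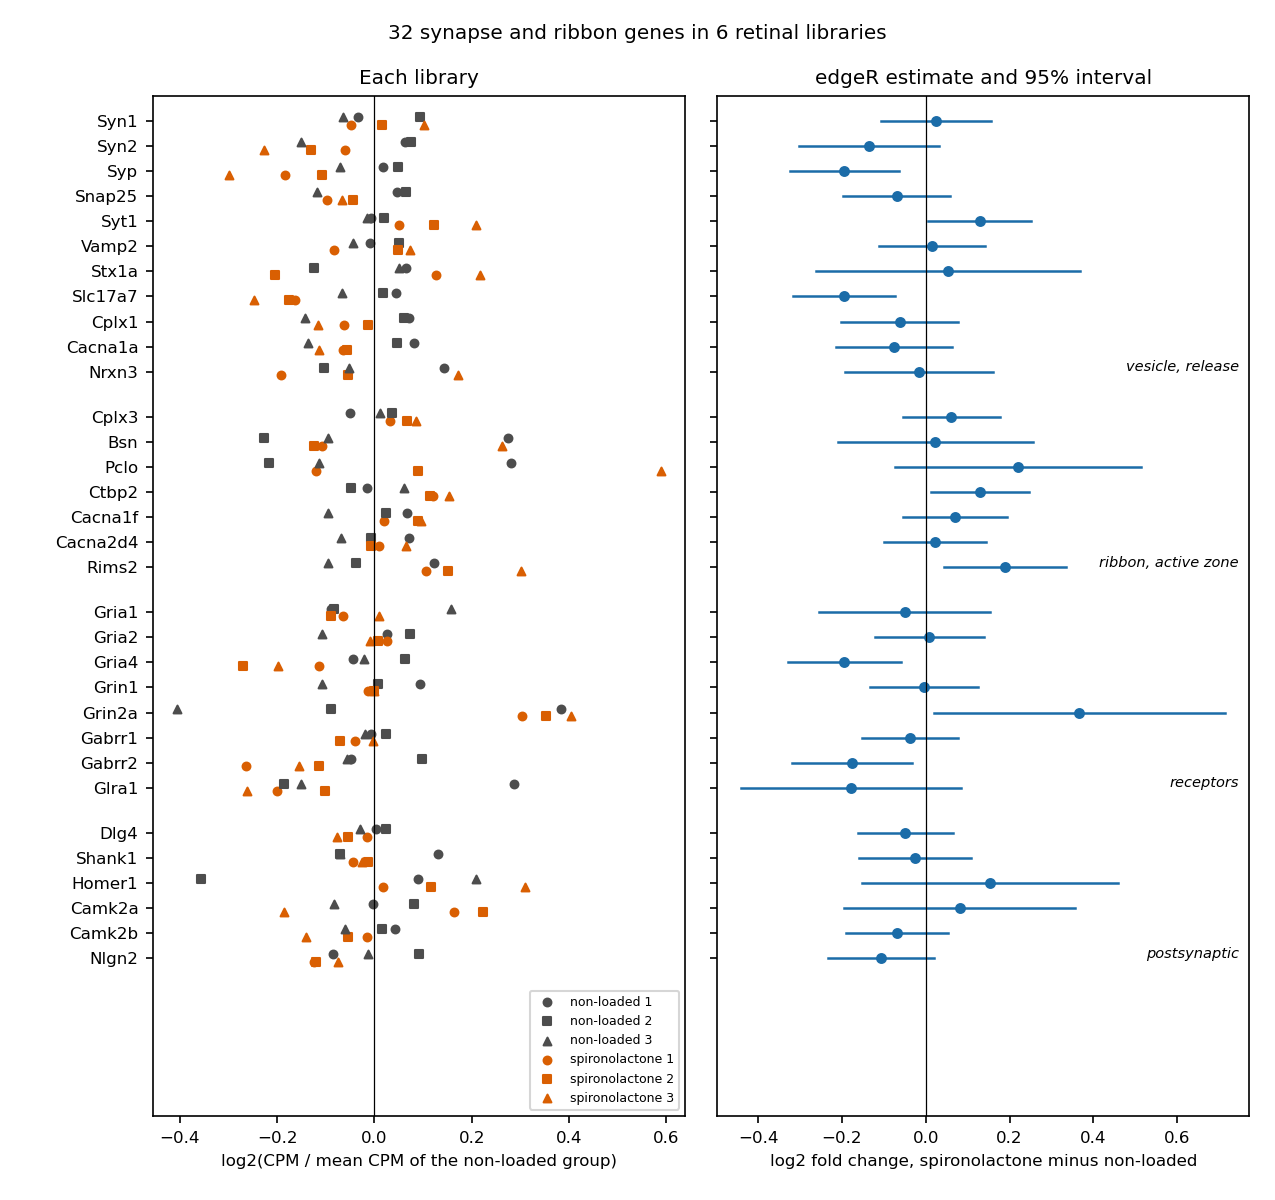
The left panel plots each library of the 32 members as log2 of its CPM over the mean CPM of the non-loaded group, and the right panel plots the edgeR log2 fold change with its 95% interval. Most points of both groups mix, and Bsn and Pclo scatter most in their class on the left. The 7 ribbon and active zone estimates lie to the right of 0 with all libraries in the fit. Those of Bsn, Pclo and Cacna2d4 change side without spironolactone replicate 3. Bsn also does so without non-loaded replicate 2 or 3, and Cacna2d4 without non-loaded replicate 3.

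All 7 ribbon and active zone genes had a log2 fold change above 0 (0.02 to 0.22, median 0.07), but those of Bsn, Pclo and Cacna2d4 were below 0 without spironolactone replicate 3. Bsn was also below 0 without non-loaded replicate 2 or 3, and Cacna2d4 without non-loaded replicate 3. Of the 26 further ribbon and active zone genes that were tested, 13 lay above and 13 below 0 (median 0.006). Of the 11 vesicle and release genes 4 lay above and 7 below 0 (median -0.06), of the 8 receptor genes 2 above and 6 below (median -0.04), and of the 6 postsynaptic genes 2 above and 4 below (median -0.04); Nrxn3, Grin1 and Shank1, below 0 here, lay above 0 on the TPM scale. Among all tested genes 49.3% lay above 0. The median standard error of a single member was 0.06, and the difference between the classes was not tested. Under the 16 alternatives of processing or left-out libraries the median of the ribbon class stayed between 0.05 and 0.12 and that of the vesicle class between -0.13 and -0.03. On the TPM scale, which corrects for transcript length, the members together held 8517 to 8910 TPM. The 7 ribbon genes summed to 983, 924 and 988 TPM in the non-loaded libraries and 1033, 1005 and 1064 TPM in the spironolactone libraries. For the vesicle and release genes the sums were 6531, 6412 and 6271 and 6201, 6189.6 and 6166 TPM, and for the receptors 439, 429 and 429 and 419, 404 and 410.0 TPM. In TPM the groups did not overlap in these 3 sums. The sums were higher with spironolactone for the ribbon class and lower for the vesicle and receptor classes. The postsynaptic sums overlapped. TPM was not scaled between libraries as the CPM of the test was. Summed in that CPM, the groups overlapped in each of these 3 classes. Each sum is carried by its most abundant genes and is given here as a description.

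In level, Slc17a7 was the most abundant member at 1649.5 TPM (mean of 6 libraries), above 99.8% of tested genes. It was followed by Snap25, Vamp2, Syt1 and Syp, all vesicle and release genes, at 855 to 1261 TPM. Vamp2 (1074 TPM) and Syt1 (1071 TPM) did not differ in level beyond their spread. The scaffold gene Dlg4 (561 TPM) came next, and then the ribbon genes Ctbp2 (329 TPM) and Cplx3 (278 TPM). The most abundant receptor genes were Gabrr1 and Gabrr2, for subunits of the GABA-C receptor, with Gabrr1 at 112 TPM and Gabrr2 at 90.1 TPM. The lowest members were Stx1a at 10.3 TPM and Grin2a at 6.0 TPM. TPM depends on the annotated transcript, so a gene with a long annotated end is set lower than one annotated without it.

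**Figure D2:**
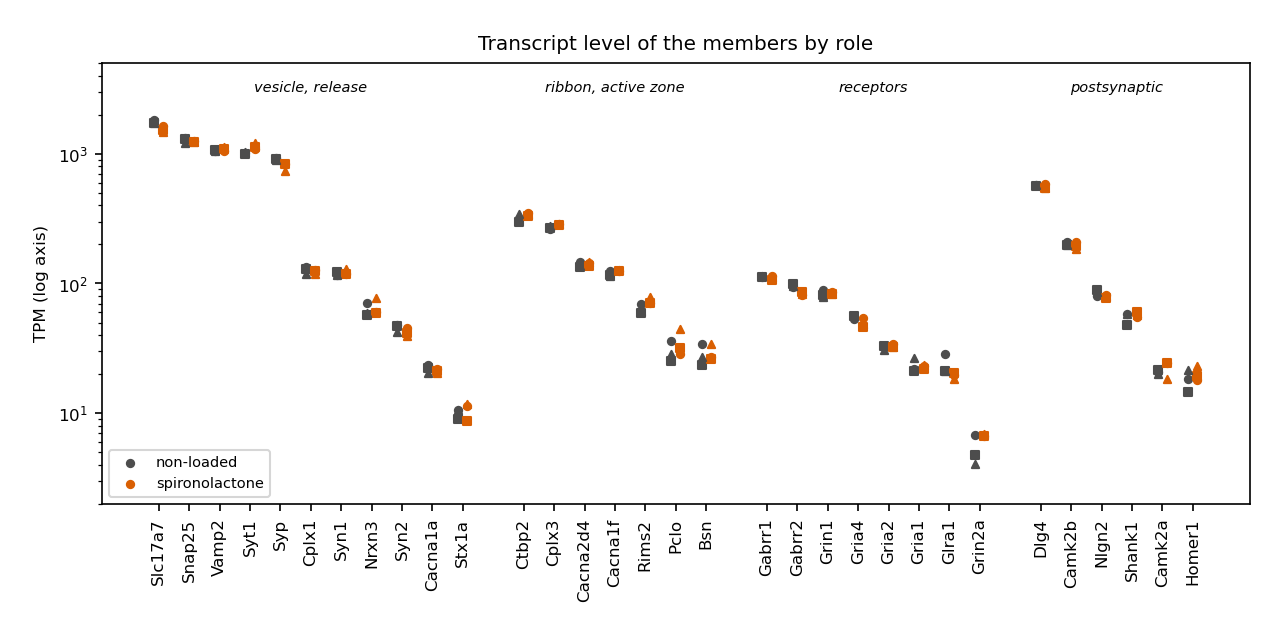
Transcript level in TPM on a log axis of the 32 members in each of 6 libraries, grouped by role and ordered by mean level within a role. The vesicle genes from Slc17a7 to Syp stand highest, and the points of both groups lie close together for nearly every gene.

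Slc17a7 encodes the vesicular glutamate transporter VGLUT1, which fills the vesicles of photoreceptors and bipolar cells. Its normalised level (CPM after scaling by the trimmed mean of M-values, replicates 1 to 3 in order here and below, non-loaded first) was 2379, 2336 and 2203 CPM in the non-loaded libraries and 2059, 2043 and 1942 CPM in the spironolactone libraries. All 3 spironolactone values lay below all 3 non-loaded ones. This gave a log2 fold change of -0.20 ± 0.06 (SE, adjusted p = 0.0889). It was the member with the smallest p. It missed the threshold in edgeR's test and passed with DESeq2 (adjusted p = 0.00997), with limma-voom (0.0329), with robust shrinkage in edgeR (0.0448), without the count filter (0.0499) and without non-loaded replicate 3 (0.0477). Over all 16 alternatives its adjusted p ranged from 0.00997 to 0.311, and its log2 fold change from -0.23 to -0.17. The rod markers given above were lower in the same libraries, with non-loaded replicate 3 the lowest of its group in both, and the part of the rods in the values of Slc17a7 was not tested.

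Syp encodes synaptophysin, an abundant membrane protein of synaptic vesicles. Its values were 633, 647 and 596 CPM without drug and 551, 580.0 and 508 CPM with it, again without overlap. Its log2 fold change was -0.19 ± 0.06 (SE) with an adjusted p of 0.116. DESeq2 put it just past the threshold (adjusted p = 0.0458), and over all alternatives the adjusted p ranged from 0.0458 to 0.36. As for Slc17a7, the part of the rods in it was not tested. Syt1, the calcium sensor that triggers vesicle fusion, lay the other way. It measured 1768, 1801 and 1759 CPM and 1841, 1933 and 2052 CPM, and the lowest spironolactone value was above the highest non-loaded one. For Syt1 edgeR estimated 0.13 ± 0.06 (log2 fold change and SE, adjusted p = 0.285). Without spironolactone replicate 3 it was 0.08 (adjusted p = 0.636). Syp and Slc17a7 on one side and Syt1 on the other thus had intervals that exclude 0 before adjustment, in opposite directions, within one class.

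The SNARE genes showed smaller differences. Snap25, the plasma membrane SNARE that binds syntaxin, measured 1117, 1133 and 997 CPM and 1011, 1049.7 and 1033 CPM. The groups overlapped, and the spread was widest among the non-loaded libraries. On the log2 scale Snap25 differed by -0.07 ± 0.06 (SE, adjusted p = 0.635). Vamp2, the vesicle SNARE, measured 1178, 1229 and 1151 CPM and 1120.4, 1226 and 1249 CPM with overlapping groups. Here the fold change on the log2 scale was 0.01 ± 0.06 (SE, adjusted p = 0.943). Stx1a, the syntaxin of conventional synapses, was low, at 115 to 143 counts per library. Stx1a had a log2 fold change of 0.05 ± 0.15 (SE, adjusted p = 0.915).

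Of the synapsins, phosphoproteins that cluster vesicles at conventional terminals, Syn1 had a log2 fold change of 0.02 ± 0.06 (SE) and Syn2 of -0.14 ± 0.08 (SE), with adjusted p of 0.908 and 0.438. Syn2 measured 65.4, 65.9 and 56.3 CPM and 60.0, 57.1 and 53.5 CPM, with non-loaded replicate 3 inside the spironolactone range. Cplx1, the complexin of conventional synapses, which clamps and promotes SNARE fusion, measured 146, 145 and 126 CPM and 133, 138 and 128 CPM, with overlap. The log2 fold change was -0.06 ± 0.07 (SE, adjusted p = 0.709). Cacna1a, the pore subunit gene of the P/Q-type calcium channel, measured 113, 111 and 97.3 CPM and 102, 103 and 98.8 CPM, with overlap. This gave a log2 fold change of -0.08 ± 0.07 (SE, adjusted p = 0.629). Nrxn3, a presynaptic adhesion gene, had a log2 fold change of -0.02 ± 0.08 (SE) with an adjusted p of 0.957. Nrxn3 was highest in non-loaded replicate 1 (230.3 CPM) and spironolactone replicate 3 (235 CPM).

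Ctbp2 encodes both RIBEYE, the ribbon's main protein, and the transcriptional corepressor CtBP2, from different start sites. Counts are per gene, so these products are not separated. It measured 529.6, 518 and 559 CPM in the non-loaded and 583, 580.0 and 596 CPM in the spironolactone libraries, and the groups did not overlap. Its log2 fold change was 0.13 ± 0.06 (SE) with an adjusted p of 0.26. The RSEM length of the gene, a mean over its 2 annotated transcripts weighted by their abundance, was 3238, 3242 and 3181 bases without and 3278, 3296 and 3301 bases with spironolactone. With RSEM's effective length, a separate value from the length given here, as an offset the log2 fold change was 0.10, with an adjusted p of 0.439.

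Rims2 encodes RIM2, an active zone scaffold that recruits calcium channels and primes vesicles. Its values were 175, 157 and 150.5 CPM and 173, 178 and 198 CPM. The groups overlapped, because non-loaded replicate 1 lay above spironolactone replicate 1. For Rims2 edgeR estimated 0.19 ± 0.07 (log2 fold change and SE, adjusted p = 0.176). This was the ribbon member with the smallest p, and its adjusted p over the alternatives ranged from 0.0842 to 0.506. In its share of the RIM family the groups did not overlap. Rims2 held 47.9, 47.6 and 48.7% of the summed TPM of Rims1 to Rims4 in the non-loaded libraries and 53.4, 52.1 and 56.1% in the spironolactone libraries. The share was 48.1 ± 0.531% and 53.9 ± 2.03% (mean ± SD, n = 3 per group), a difference of 5.79 percentage points, with an exact two-sided permutation p of 0.1, the smallest that 3 against 3 libraries can give. The share of Rims4, a short RIM gene product without the N-terminal domains, was 16.8 ± 0.717% and 13.6 ± 0.713%, and that of Rims3, another short form, was 22.9 ± 1.11% and 20.3 ± 1.21%. Rims1 held 12.2 ± 0.910% and 12.2 ± 0.702%. The RSEM length was 4671 to 4765 bases for Rims2, 1369 to 1373 bases for Rims3 and 981 bases for Rims4. The part of transcript length in these shares was not tested.

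The L-type channel of ribbon synapses has its pore subunit from Cacna1f and an auxiliary subunit from Cacna2d4, and loss of either is known to impair photoreceptor transmission. Cacna1f measured 403, 391 and 361 CPM and 390.4, 409.7 and 411 CPM, with overlapping groups. On the log2 scale Cacna1f differed by 0.07 ± 0.06 (SE, adjusted p = 0.625). Cacna2d4 measured 266, 252 and 242 CPM and 255, 252 and 265 CPM. Here the fold change on the log2 scale was 0.02 ± 0.06 (SE, adjusted p = 0.905). Among 6 pore-forming calcium channel genes Cacna1f held 68.4 ± 1.47% of the summed TPM without drug and 70.0 ± 0.816% with it. Cacnb2, a gene for the beta subunit of this channel and not a member, measured 125, 122 and 114 CPM and 129, 147 and 161 CPM. Cacnb2 had a log2 fold change of 0.28 ± 0.07 (SE, adjusted p = 0.0593). It did not pass here but passed under 5 of the 16 alternatives (adjusted p 0.0051 to 0.274). Cabp4, the calcium-binding protein that tunes this channel, was chosen after its values were seen. It measured 351, 390.4 and 422 CPM and 451, 454 and 449 CPM, without overlap. The log2 fold change was 0.22 ± 0.06 (SE, adjusted p = 0.0911).

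Cplx3, the complexin of ribbon synapses, measured 468, 497 and 488 CPM and 495, 508 and 514 CPM. Spironolactone replicate 1 lay below the highest non-loaded library, and the groups overlapped. This gave a log2 fold change of 0.06 ± 0.05 (SE, adjusted p = 0.644). Its 95% interval ran from 0.963 to 1.13-fold. Of the summed TPM of the 4 complexin genes Cplx4, the other ribbon complexin, held 58.1 ± 0.776% and 59.3 ± 0.733%, Cplx3 18.1 ± 0.866% and 18.4 ± 0.431%, and Cplx1 8.47 ± 0.510% and 7.89 ± 0.356%. Ribbon complexins thus made up most complexin transcripts in both groups.

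Bsn and Pclo encode bassoon and piccolo, giant proteins of the active zone; bassoon anchors the ribbon to the photoreceptor membrane. Bsn measured 299, 211 and 231 CPM and 229, 227 and 296 CPM. Non-loaded replicate 1 and spironolactone replicate 3 were high and the other 4 libraries lay close together. Its log2 fold change was 0.02 ± 0.11 (SE) with an adjusted p of 0.956. Pclo measured 288, 204 and 219 CPM and 218, 252 and 356 CPM and was also highest in these 2 libraries. For Pclo edgeR estimated 0.22 ± 0.14 (log2 fold change and SE, adjusted p = 0.481). Without spironolactone replicate 3 its log2 fold change was -0.01 (adjusted p = 0.988), so the value rested on that library.

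These 2 genes have the longest transcripts among the members, with RSEM lengths of 15776 to 15951 bases for Bsn and 14222 to 14778 bases for Pclo. The same 2 libraries were high for long transcripts in general. For the 48 tested genes above 12000 bases the median deviation from the group mean was 0.22 on the log2 scale in non-loaded replicate 1 and 0.17 in spironolactone replicate 3, against -0.17 to -0.06 in the other 4 libraries. For the 5410 genes of 2000 to 4000 bases it lay between -0.004 and 0.005 in all 6. Between the groups the median log2 fold change rose with length, from -0.05 below 1000 bases to 0.02 at 4000 to 8000 bases. For genes of 8000 to 12000 bases it was 0.05, and for the longest genes it was also 0.05. Across the 32 members the deviation of a library was correlated with log10 transcript length at r = 0.45 in non-loaded replicate 1 and r = 0.56 in spironolactone replicate 3, and at r = -0.45 to -0.26 in the others (Pearson, a description over genes that share each library). The part of transcript length in the values of Bsn and Pclo was not tested beyond these values.

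**Figure D3:**
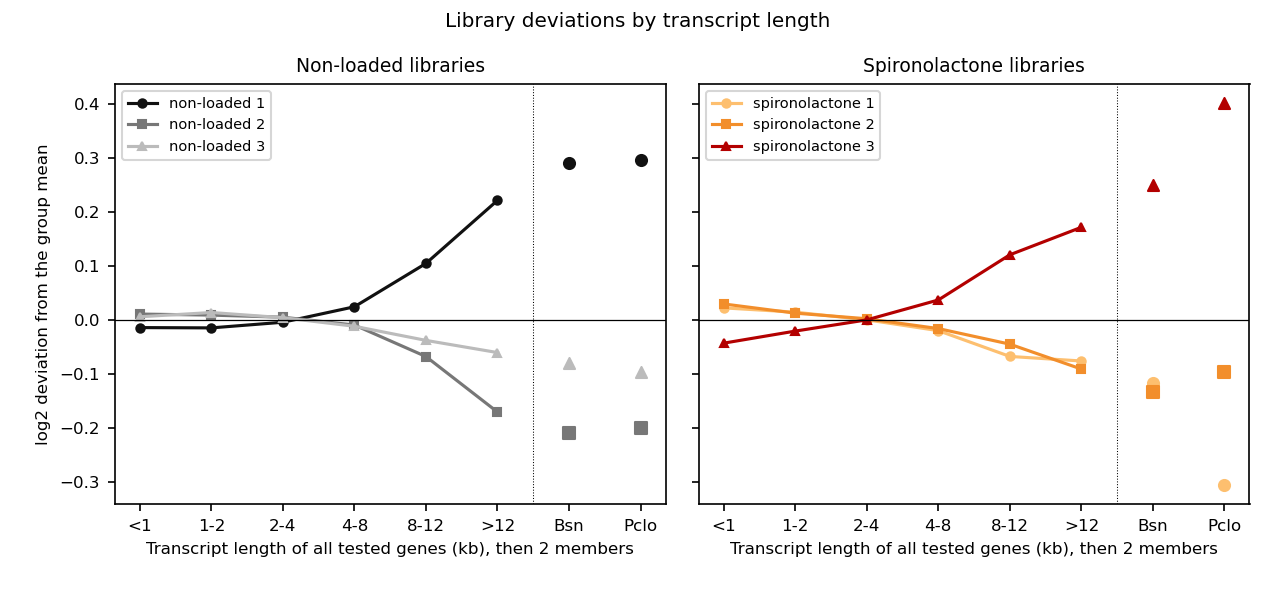
Median log2 deviation of each library from the mean of its group for all tested genes in 6 classes of transcript length in kilobases, followed by the single values of Bsn and Pclo. Non-loaded replicate 1 and spironolactone replicate 3 bend upwards with length, reaching 0.22 and 0.17 in the longest class, and Bsn and Pclo lie on the same side of 0 in these libraries.

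Among receptors, AMPA-type glutamate receptors carry fast excitation from bipolar cells to amacrine and ganglion cells and from cones to OFF bipolar and horizontal cells. Gria4 measured 93.9, 101 and 95.3 CPM and 89.4, 80.2 and 84.4 CPM, with every spironolactone library below every non-loaded one. On the log2 scale Gria4 differed by -0.19 ± 0.06 (SE, adjusted p = 0.131). Its adjusted p ranged from 0.0589 to 0.399 over the alternatives. Gria2, whose subunit makes the channel impermeable to calcium after RNA editing, measured 121, 125 and 110.0 CPM and 121, 119 and 118 CPM. Here the fold change on the log2 scale was 0.01 ± 0.06 (SE, adjusted p = 0.966). Gria1 was lower in level, at 26.4, 26.5 and 31.3 CPM and 26.9, 26.4 and 28.3 CPM. Gria1 had a log2 fold change of -0.05 ± 0.10 (SE, adjusted p = 0.863). Only Gria4 therefore had an interval that excluded 0 before adjustment among these 3 members.

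Of the summed TPM of Gria1 to Gria4, Gria4 held 41.8 ± 0.900% without and 39.5 ± 1.24% with spironolactone (exact permutation p = 0.2). Gria2 held 24.5 ± 1.22% and 26.5 ± 0.674%, with libraries of 25.4, 24.9 and 23.1% and 26.0, 27.2 and 26.2% (exact permutation p = 0.1). The groups did not overlap for Gria2, with a difference of 1.96 percentage points, and overlapped for Gria4, with a difference of -2.32 points.

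NMDA receptors pair the obligatory subunit of Grin1 with a GluN2 subunit and add a slower component, mainly in ganglion and amacrine cells. Grin1 measured 202, 189.7 and 175 CPM and 187, 189 and 189 CPM, and the spironolactone libraries lay inside the non-loaded range. The log2 fold change was -0.0040 ± 0.06 (SE, adjusted p = 0.986). Grin2a had the largest fold estimate of all members and the lowest TPM, at 15.5, 11.2 and 8.96 CPM and 14.7, 15.2 and 15.7 CPM. Non-loaded replicate 1 lay within the spironolactone range, and the other non-loaded libraries below it. This gave a log2 fold change of 0.37 ± 0.16 (SE, adjusted p = 0.285). The interval of its fold change ran from 1.01 to 1.64-fold at 109 to 190 counts per library, the only one among the members that reached past 1.5-fold. Its log2 fold change was 0.19 (adjusted p = 0.632) without non-loaded replicate 3 and 0.59 (adjusted p = 0.0908) without non-loaded replicate 1. As a share of the 4 GluN2 genes Grin2a held 26.9, 25.6 and 24.0% and 30.1, 30.4 and 34.8%, or 25.5 ± 1.46% and 31.8 ± 2.63%, a difference of 6.24 percentage points and the largest of the 28 member shares. These groups did not overlap (exact permutation p = 0.1).

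Inhibition reaches bipolar cell terminals through GABA-C receptors and through glycine receptors. Gabrr2 measured 84.7, 93.7 and 84.2 CPM and 72.9, 80.9 and 78.6 CPM, again without overlap. Its log2 fold change was -0.18 ± 0.07 (SE) with an adjusted p of 0.205. Gabrr1, its partner, measured 250.2, 255 and 248 CPM and 244, 239 and 251 CPM with overlapping groups. For Gabrr1 edgeR estimated -0.04 ± 0.05 (log2 fold change and SE, adjusted p = 0.8). Of the summed TPM of Gabrr1, Gabrr2 and Gabrr3, Gabrr1 held 52.0 ± 0.862% and 55.0 ± 1.51% and Gabrr2 44.5 ± 0.928% and 41.5 ± 1.45% (exact permutation p = 0.1 for each). The RSEM length of Gabrr2 was 1796, 1816 and 1784 bases and 1831, 1840.1 and 1872 bases. The adjusted p of Gabrr2 with RSEM's effective length as an offset was 0.111.

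Glra1, an alpha subunit of the glycine receptor, measured 29.0, 20.9 and 21.5 CPM and 20.7, 22.2 and 19.9 CPM. Non-loaded replicate 1 was high and the other 5 libraries lay together. On the log2 scale Glra1 differed by -0.18 ± 0.12 (SE, adjusted p = 0.527). Its share among Glra1 to Glra4 was 52.4 ± 4.94% and 48.9 ± 1.90%, while that of Glra2 was 29.7 ± 2.80% and 36.0 ± 2.60%. The length of Glra1 was 2125 bases in all 3 spironolactone libraries and 1903 to 2026 bases in the non-loaded ones, at 220 to 287 counts per library.

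On the postsynaptic side, Dlg4 encodes PSD-95, a scaffold that in the retina is also abundant in photoreceptor terminals. It measured 909, 922 and 888 CPM and 897, 873 and 859 CPM, with spironolactone replicate 1 inside the non-loaded range. Here the fold change on the log2 scale was -0.05 ± 0.05 (SE, adjusted p = 0.723). Dlg4 held 75.8, 75.4 and 74.9% of the summed TPM of Dlg1 to Dlg4 in the non-loaded and 74.3, 73.0 and 71.4% in the spironolactone libraries, or 75.4 ± 0.437% and 72.9 ± 1.45% (exact permutation p = 0.1). Dlg1, the related scaffold SAP97, measured 168, 158 and 165 CPM and 181, 188 and 195 CPM, without overlap. Dlg1 had a log2 fold change of 0.20 ± 0.06 (SE, adjusted p = 0.0799). It passed with DESeq2 (adjusted p = 0.0494) and without spironolactone replicate 1 (0.0477), within a range of 0.0477 to 0.267 over the alternatives.

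Camk2b encodes the beta subunit of calcium/calmodulin-dependent kinase II, the more abundant of the pair measured here. Its values were 424, 416 and 395 CPM and 407, 397 and 373 CPM, with overlapping groups. The log2 fold change was -0.07 ± 0.06 (SE, adjusted p = 0.623). Camk2a, the alpha subunit, was low at 15.5, 16.4 and 14.6 CPM and 17.4, 18.1 and 13.6 CPM. This gave a log2 fold change of 0.08 ± 0.13 (SE, adjusted p = 0.825). The share of Camk2b among the 4 kinase genes was 43.3, 42.5 and 41.0% and 40.3, 38.9 and 37.3%, a difference of -3.44 percentage points (exact permutation p = 0.1). Camk2d held 42.8 ± 1.45% and 45.4 ± 1.54%.

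The remaining scaffolds and adhesion genes overlapped between the groups. Nlgn2, the neuroligin of inhibitory synapses, measured 166, 188 and 175 CPM and 162, 163 and 168 CPM, and only spironolactone replicate 3 reached above the lowest non-loaded value. Its log2 fold change was -0.11 ± 0.06 (SE) with an adjusted p of 0.417. Shank1, a master scaffold of excitatory synapses, measured 207, 180.1 and 180.2 CPM and 183, 187 and 186 CPM. For Shank1 edgeR estimated -0.03 ± 0.06 (log2 fold change and SE, adjusted p = 0.898). Homer1, which links Shank proteins to group I metabotropic receptors, measured 16.3, 11.9 and 17.7 CPM and 15.5, 16.6 and 19.0 CPM. On the log2 scale Homer1 differed by 0.15 ± 0.14 (SE, adjusted p = 0.665). Homer1 has 3 annotated transcripts, one of which is known to be induced by neuronal activity, and its value is for the gene as a whole.

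**Figure D4:**
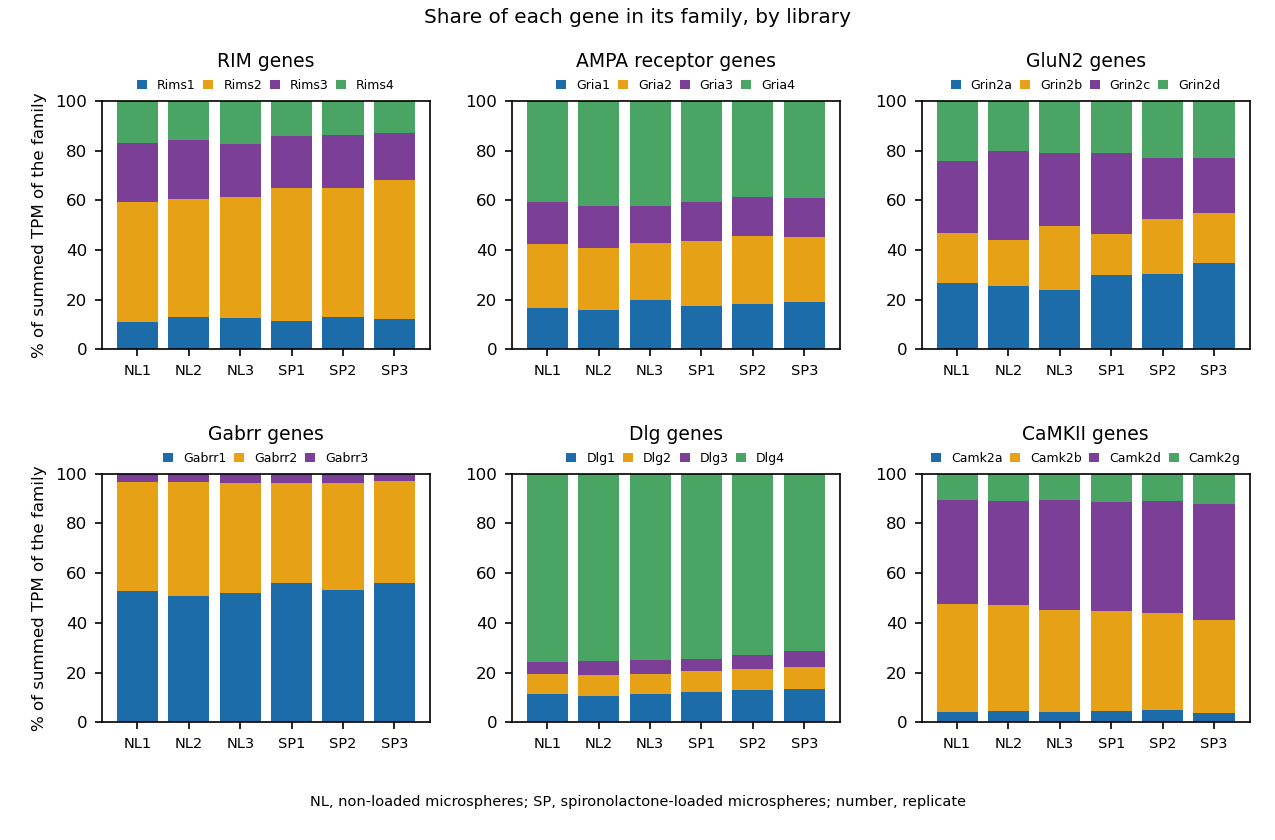
Share of each gene in the summed TPM of its family, in percent, as stacked bars for each of the 6 libraries (NL, non-loaded; SP, spironolactone). The share of Rims2 is larger in the 3 spironolactone libraries, Grin2a is larger and Dlg4 and Camk2b are smaller there, and these steps are at most 6.24 percentage points between group means.

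In all, 28 shares of members in 20 gene families were tested. The exact permutation p was at its smallest possible value of 0.1 for 9 of them, 4 higher and 5 lower with spironolactone, and the smallest adjusted p was 0.311, so none passed. Among the other genes of the same families 10 of 40 shares (25%) were at that p, and shares within a family depend on each other. The 9 are the shares of Slc17a7, Cacna1a, Rims2, Gria2, Grin2a, Gabrr1, Gabrr2, Dlg4 and Camk2b. The median size of the 28 differences was 2.04 percentage points. The RSEM lengths were added after seeing the data. Of the 20 members with more than 1 annotated transcript, 4 had RSEM lengths at the smallest p, all longer with spironolactone. These were Slc17a7, Ctbp2, Gabrr2 and Glra1, and the smallest adjusted p was 0.5. The share of all genes with more than 1 transcript at that smallest p was not computed. The count and its direction therefore describe these members without a background.

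Within a group the members ordered the libraries unevenly. Non-loaded replicate 3 was the lowest of its group for 20 of the 32 members, where it was lowest for 32.3% of all tested genes. Spironolactone replicate 1 was the lowest of its group for 15 members and spironolactone replicate 3 the highest for 17, against 35.5% and 35.7% of all genes. Members of one library share its depth and scaling, so these counts describe the libraries.

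The rest of the synaptic machinery was read from a list of 140 further genes, of which 139 were in the tables and 138 were tested. Of these 0 rose and 0 fell with edgeR, 15 had an unadjusted p below 0.05 (8 higher, 7 lower, 10.9%) and 28 did not overlap between the groups (13 higher, 15 lower, 20.3%). DESeq2 called 4, all higher: Cabp4, Cacnb2, Dlg1 and Elfn1. Its calls over all genes were 302 higher and 120 lower. By class, 0 of 47 vesicle and release genes, 0 of 26 ribbon and active zone genes, 0 of 38 receptors and 0 of 27 postsynaptic genes passed with edgeR. Those at an unadjusted p below 0.05 were 1 higher and 5 lower vesicle genes and 5 higher and 0 lower ribbon genes. For receptors they were 0 higher and 1 lower, and for postsynaptic genes 2 higher and 1 lower. Over all tested genes 1261 were higher and 837 lower at that p. The median log2 fold change of this list was -0.02.

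The genes with the smallest p in these classes included the following. Among ribbon and active zone genes they were Cacnb2, given above, and Elfn1, an adhesion protein by which rods contact ON bipolar cells. Elfn1 measured 169, 181 and 196 CPM and 208, 216 and 211 CPM, without overlap. Here the fold change on the log2 scale was 0.22 ± 0.06 (SE, adjusted p = 0.077). It passed under 4 of the 16 alternatives (adjusted p 0.031 to 0.307). In the vesicle class Napa, the alpha-SNAP that helps recycle SNARE complexes, had a log2 fold change of -0.17 ± 0.06 (SE, adjusted p = 0.178) and the neurexin gene Nrxn2 of -0.14 ± 0.06 (SE, adjusted p = 0.226). Among receptors the kainate receptor gene Grik5 had -0.15 ± 0.07 (SE, adjusted p = 0.283). Camk2d stood at 0.13 ± 0.06 (SE, adjusted p = 0.266) in the postsynaptic class, next to Dlg1.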

How the data were processed

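RNA from 6 neuroretinas was sequenced from stranded mRNA libraries (KAPA kit, per the labels' protocols). The submitters' processing notes list STAR 2.5.3a, RSEM 1.2.28, Trimmomatic and FastQC, with rat build rn6. Neither the annotation nor how strand was handled is given in the sources used here. The authors deposited, per gene and library, RSEM expected counts, TPM, FPKM and transcript lengths in bases; FPKM was not used. Of the expected counts 0.437 to 0.469% were fractional and were rounded. The 6 libraries held 9996198 to 12589466 counts.

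Genes were filtered with filterByExpr, which left 13242 of 28358, scaled by TMM and tested with edgeR 4.0.16 (quasi-likelihood, R 4.3.3), spironolactone against non-loaded, with Benjamini-Hochberg adjustment over all 13242 and a threshold of 0.05. Standard errors are the log2 fold change over the root of F, and 95% intervals use the moderated degrees of freedom. Alternatives were DESeq2 1.42.0, limma 3.58.1, other scalings and filters, length offsets, TPM with a pseudocount of 1 or 0.1, and leaving out each library. Shares of a gene family were computed from TPM and tested by an exact two-sided permutation over libraries. Only the main edgeR test was checked on simulated counts, drawn independently for each gene and library.

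The members and lists were chosen with earlier results of these data known. All 32 members are named. Of the further synaptic genes, those past the threshold and the 2 with the smallest p in each class are named; Cabp4 and the other genes of a member's family are exceptions. Some results are not reported here.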

Additional observations from a re-analysis of the deposited data

How the results depend on the processing

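The call of 0 members became 2 with DESeq2 (Slc17a7 and Syp) and 1 (Slc17a7) with limma-voom, with robust shrinkage, without the count filter and at a threshold of 0.1; leaving out a library gave 0 to 1, the 1 being Slc17a7 without non-loaded replicate 3. For the other synaptic genes the count of 0 became 1 with library totals, 4 with DESeq2, 3 with robust shrinkage, 3 without the count filter and 4 at a threshold of 0.1, and 0 to 3 with a library left out. Over all genes 348 calls (247 higher, 101 lower) became 602 without the filter, 593 at a threshold of 0.1, 100 (82 higher, 18 lower) with log2(TPM + 1) and 95 (79 higher, 16 lower) with log2(TPM + 0.1), and 111 to 621 with a library left out, the most without spironolactone replicate 1. The cause was not tested.

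Of 512 member estimates under an alternative, 32 in 13 genes changed sign, 24 of them by leaving out a library. With other settings, Grin1 was 0.0169 and 0.0171 with the TPM scales (pseudocount 1 and 0.1), Nrxn3 0.0459 with the length offset and 0.0556 and 0.0563 with TPM, and Shank1 0.0535 with the offset and 0.0711 and 0.0723 with TPM. Leaving out a library gave log2 fold changes of -0.12 to 0.18 for Bsn, -0.0106 to 0.38 for Pclo, -0.0134 to 0.0592 for Cacna2d4, -0.0186 to 0.0713 for Syn1, -0.0185 to 0.0611 for Vamp2, -0.0368 to 0.17 for Stx1a and -0.12 to 0.0638 for Nrxn3. For receptors and postsynaptic genes they were -0.0932 to 0.0348 for Gria1, -0.0463 to 0.0461 for Gria2, -0.0593 to 0.0448 for Grin1, -0.0637 to 0.0428 for Shank1, -0.0014 to 0.27 for Homer1 and -0.0012 to 0.19 for Camk2a. None of these estimates passed the test, and the cause was not tested. Of 196 differences in family share, 193 moved by less than 1 SD. No paired analysis was possible because the sample titles carry unexplained numbers, none of which is shared between the groups, and replicates were numbered only to name them. With 3 libraries a group, the exact test cannot go below 0.1.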
